A study of Mus musculus with 36 samples.

Results

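The unfolded protein response and the integrated stress response were followed here through 35 genes in 2 kinds of mouse dendritic cell. The genes were taken by name, from what they are known to do, but with earlier results of these data known. They are 35 of the 53299 genes in the deposited count table. They fall into 7 stress sensors and transcription factors, 12 target genes of the transcription factor ATF4, 12 chaperones and folding enzymes of the endoplasmic reticulum (ER), and 4 genes of ER-associated degradation. All 35 passed the filter on low counts and stood among the 12463 genes that were tested.

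The cells were conventional dendritic cells of the types cDC1 and cDC2, induced from mouse bone marrow with FLT3 ligand (FLT3L), the cytokine that drives dendritic cell development. Each type was left without treatment or was given LPS, PGPC, or LPS together with PGPC. LPS is a bacterial cell wall product sensed by the receptor TLR4, and PGPC is an oxidized phospholipid. The title of the series places the cells in work on inflammasomes in hyperactive dendritic cells. The sources used here do not give the strain, genotype, dose, time of treatment or any sort of the cells. Groups held 3 libraries each (replicates 1, 2 and 3 of cDC1; replicates 4, 5 and 6 of cDC2), except for cDC2 with PGPC, which held 2. The series calls the replicates biological but does not say that they came from separate animals or cultures, so p-values measure the spread between these libraries, which may be technical. The 12 libraries with alum, at 467 to 2610 genes with counts, and the third cDC2 library with PGPC, whose total was 3805 counts, were left out, so that 23 of 36 libraries were used.

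Those 23 libraries held 243870 to 16601064 counts and 9687 to 15608 genes with counts, and the 35 genes took 703 to 97348 of the counts. Levels are given in CPM, counts scaled to the depth of the library. Differences are log2 fold changes ± standard error, and a gene is called changed at an adjusted p of 0.05 or less in edgeR's quasi-likelihood test, with adjustment over all tested genes. Untreated replicate 6 of cDC2 is the shallowest library, and in it 3 counts stand for 11.2 CPM, so a 0 there says little. Of the defining cDC1 markers, Clec9a was at 14.4 to 72.5 CPM in untreated cDC1 and at 0 to 1.34 CPM in untreated cDC2, whereas Xcr1 was at 0 to 0.380 CPM in the untreated cDC1 libraries. Sirpa was higher in untreated cDC2 (838 to 1264 CPM) than in untreated cDC1 (218 to 502 CPM), but Cd209a was near 0 in untreated cDC2 and Irf4 was higher in cDC1. The summed level of the 10 cDC1 markers was 1096 to 1814 CPM without treatment, 433 to 630 CPM with LPS and 368 to 798 CPM with LPS and PGPC. The 10 cDC2 markers in cDC1 summed to 319 to 591 CPM without treatment and 815 to 1120 CPM with LPS, where Cd209a and Clec10a were at 0. Monocyte and macrophage markers summed to 1464 to 4195 CPM in untreated cDC1 and 641 to 916 CPM with both, and in cDC2 to 5665 to 7192 CPM without treatment and 2852 to 5637 CPM with LPS. Mast cell and basophil markers in cDC2 summed to 7.77 to 14.2 CPM without treatment and 217 to 258 CPM with LPS, where Mcpt8, Cpa3, Fcer1a, Ms4a2, Cma1 and Tpsb2 were at 0. Counts from 186 ribosomal RNA rows took 53.5% ± 16.5 (SD, n = 3) of untreated cDC1 libraries and 22.0% ± 6.83 (SD, n = 3) with LPS. In cDC2 they took 32.6% ± 4.45 (SD, n = 3) without treatment and 56.5% ± 6.27 (SD, n = 2) with PGPC. Leaving these rows out before scaling, an alternative chosen after seeing the data, moved 2 counts of called members, from 9 to 8 for LPS and from 6 to 7 for LPS with PGPC against no treatment in cDC1. The part of marker levels and ribosomal counts in the results below was not tested. In bulk RNA of this kind, fewer cells of a type and less RNA per cell cannot be told apart.

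The ER responds to unfolded proteins through the membrane sensors, PERK (encoded by Eif2ak3), IRE1 (encoded by Ern1) and ATF6. ATF6 and the spliced form of XBP1, which IRE1 makes, switch on chaperones and degradation genes that raise the folding capacity of the ER. PERK acts by phosphorylating eIF2alpha, a step it shares with kinases that sense missing amino acids, haem loss or viral RNA, and this common branch, the integrated stress response, slows translation while ATF4 is made and turns on genes of amino acid synthesis and transport. Dendritic cells are known for a constitutive use of the IRE1 and XBP1 arm, above all the cDC1 type. Gene counts do not show the splicing of Xbp1, the translation of Atf4 or the phosphorylation of eIF2alpha.

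The promoters of 6 genes are shown because they hold the sequence elements that set the ATF4 branch apart from the chaperone branch, and because these genes differ in how they moved. They are from RefSeq on GRCm38.p6, 5′ to 3′ on the gene's own strand, with 220 bases each. Trib3 is at chr2:152344031-152344250 on the minus strand, from base -190 to base 30 of the RefSeq start. The others run from base -220 to base -1: Chac1 at chr2:119351022-119351241 on the plus strand, Asns at chr6:7693210-7693429 on the minus strand, Hspa5 at chr2:34771870-34772089 on the plus strand, Hsp90b1 at chr10:86705445-86705664 on the minus strand and Herpud1 at chr8:94386209-94386428 on the plus strand. Capitals mark the core of the C/EBP-ATF response element, which ATF4 binds (TGATGNAA, CARE core), in Trib3, Chac1, Asns and Herpud1. They mark the ER stress response element (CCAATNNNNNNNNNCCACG, ERSE), which ATF6 binds together with NF-Y, in Hspa5 and Hsp90b1, and the related ERSE-II (ATTGGNCCACG) in Herpud1.

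Trib3 promoter: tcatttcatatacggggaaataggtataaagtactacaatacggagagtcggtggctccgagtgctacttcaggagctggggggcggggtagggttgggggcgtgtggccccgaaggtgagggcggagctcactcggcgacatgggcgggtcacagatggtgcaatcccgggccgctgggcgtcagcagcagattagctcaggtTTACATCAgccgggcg
Chac1 promoter: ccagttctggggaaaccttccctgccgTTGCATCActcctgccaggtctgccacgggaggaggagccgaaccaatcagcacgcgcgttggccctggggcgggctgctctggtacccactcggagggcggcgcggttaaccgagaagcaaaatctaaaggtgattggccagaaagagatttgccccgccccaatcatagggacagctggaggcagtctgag
Asns promoter: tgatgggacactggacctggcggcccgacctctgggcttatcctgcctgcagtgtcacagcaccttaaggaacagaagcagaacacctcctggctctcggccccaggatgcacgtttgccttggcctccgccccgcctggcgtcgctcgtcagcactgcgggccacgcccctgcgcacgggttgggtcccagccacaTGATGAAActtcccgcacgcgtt
Hspa5 promoter: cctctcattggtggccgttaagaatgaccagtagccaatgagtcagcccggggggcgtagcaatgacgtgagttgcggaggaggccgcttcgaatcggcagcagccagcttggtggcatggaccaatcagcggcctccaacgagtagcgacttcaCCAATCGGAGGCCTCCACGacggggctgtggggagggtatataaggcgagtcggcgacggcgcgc
Hsp90b1 promoter: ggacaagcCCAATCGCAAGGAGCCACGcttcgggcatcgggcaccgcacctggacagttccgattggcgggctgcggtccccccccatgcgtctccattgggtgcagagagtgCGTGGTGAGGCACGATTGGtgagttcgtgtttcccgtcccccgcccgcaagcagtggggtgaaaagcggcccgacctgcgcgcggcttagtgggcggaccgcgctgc
Herpud1 promoter: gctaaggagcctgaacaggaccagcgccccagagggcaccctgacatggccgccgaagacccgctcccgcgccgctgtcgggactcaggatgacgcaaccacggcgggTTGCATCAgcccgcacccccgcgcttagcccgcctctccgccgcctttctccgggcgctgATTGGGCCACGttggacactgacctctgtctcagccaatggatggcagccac

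Both strands were searched from 250 bases before to 50 bases after the RefSeq start, in the 32 members that have an entry. The CARE core stood in 3 of 11 ATF4 target promoters, those of Asns (-23 to -16), Chac1 (-193 to -186) and Trib3 (15 to 22), and also in those of Atf3 and Herpud1. Of all 32851 promoters, 3.969% hold it. The ERSE stood in 7 of 11 chaperone promoters, namely Calr, Canx, Creld2, Dnajc3, Hsp90b1, Hspa5 and Pdia6, and in that of Syvn1, against 0.119% of all promoters. Hsp90b1 holds a pair of these elements, 1 on each strand. Herpud1, which encodes a stress-induced membrane protein of the degradation machinery, is the member with both an ERSE-II and a CARE core, and 0.037% of all promoters hold an ERSE-II. The core of the unfolded protein response element (TGACGTGG), which spliced XBP1 binds, stood in 0 member promoters and in 0.676% of all. These are matches of letters in a window, and binding was not measured. The promoters shown were picked for their elements and for how the genes moved, so they cannot show whether an element goes with a response.

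**Figure D1:**
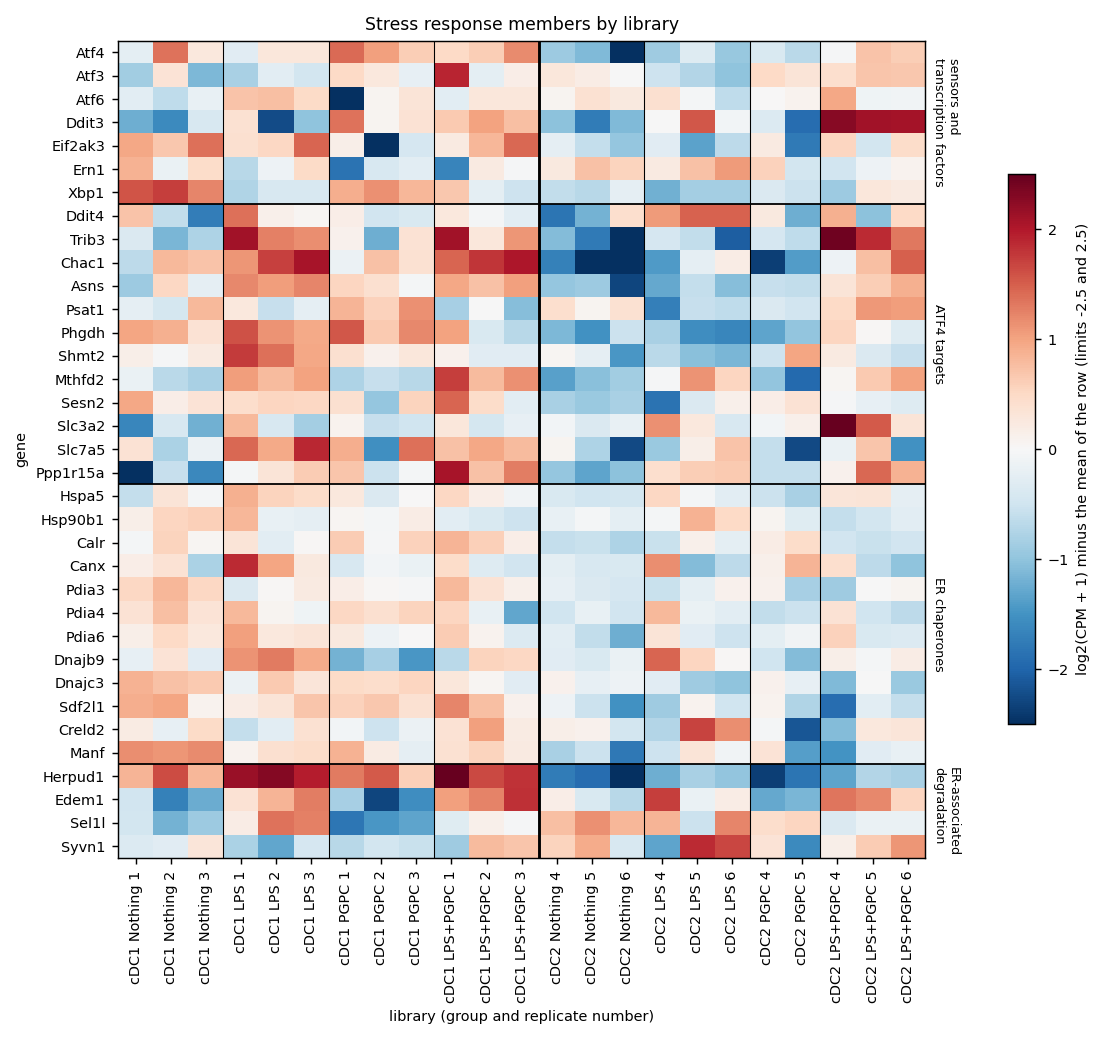
Level of the 35 genes (rows, by role) in the 23 libraries (columns, by cell type and treatment), as log2(CPM + 1) less the mean of the row, with the colour scale limited at both ends. Trib3 and Ddit3 are high in the 3 cDC2 libraries with LPS and PGPC, and Xbp1 is high in the 3 untreated cDC1 libraries.

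Across the 8 treatment comparisons, edgeR called 13 of the 35 genes at least once (37.1%, against 27.1% of all tested genes) and 22 never. DESeq2 called 17 (48.6%, against 36.4%), the same 13 with Atf3, Ddit4, Psat1 and Hsp90b1. Trib3, Mthfd2 and Ppp1r15a, all ATF4 targets, were called in 4 comparisons each, more often than any other member. LPS alone changed 9 genes in cDC1 (25.7% of the members, against 17.9% of all tested genes), of which 8 rose and 1 fell, beside 8.58% of all genes higher and 9.36% lower. In cDC2 it changed 4 (11.4% against 8.52%), all higher, beside 5.82% of all genes. LPS with PGPC against no treatment changed 6 genes in cDC1 (17.1% against 11.9%), 5 higher and 1 lower (all genes 6.58% and 5.3%), and 8 in cDC2 (22.9% against 7.62%), all higher. In cDC2 5.42% of all tested genes were called higher in that comparison.

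PGPC by itself moved none of the 35 genes past the threshold in either cell type. In cDC1 edgeR called 0 members (2.08% of all tested genes), and 5 of 35 had an unadjusted p under 0.05, as did 2061 of all 12463 tested genes. DESeq2 called 1 member, Ppp1r15a, and 637 of all 12463 genes. Neither count exceeds the share over all genes. The 10 neutrophil and granulocyte precursor markers summed to 259 to 1152 CPM in these PGPC libraries and 47.0 to 199 CPM in untreated cDC1, with Elane at 0 in both, and their part in the PGPC values was not tested. In cDC2, with 2 PGPC libraries, edgeR called 0 members (0.016% of all tested genes). An unadjusted p under 0.05 was found for 2 members, near the share over all genes (723 of 12463). DESeq2 called 0, with 16 left without an adjusted p. PGPC added to LPS, compared with LPS alone, lowered Shmt2 in cDC1 (1 of 35, 2.86%, against 1.93% of all genes called and 0.546% called lower) and raised Trib3 in cDC2 (1 of 35, 2.86%, against 0.385% called and 0.281% called higher). The comparisons with LPS and PGPC share their libraries, and those against no treatment share the untreated libraries, so their values are set side by side and not counted as separate support. Groups without overlap are common at this size: 13.9% to 39.1% of all tested genes had none, depending on the comparison. A lack of overlap below is thus a description and not a call.

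**Figure D2:**
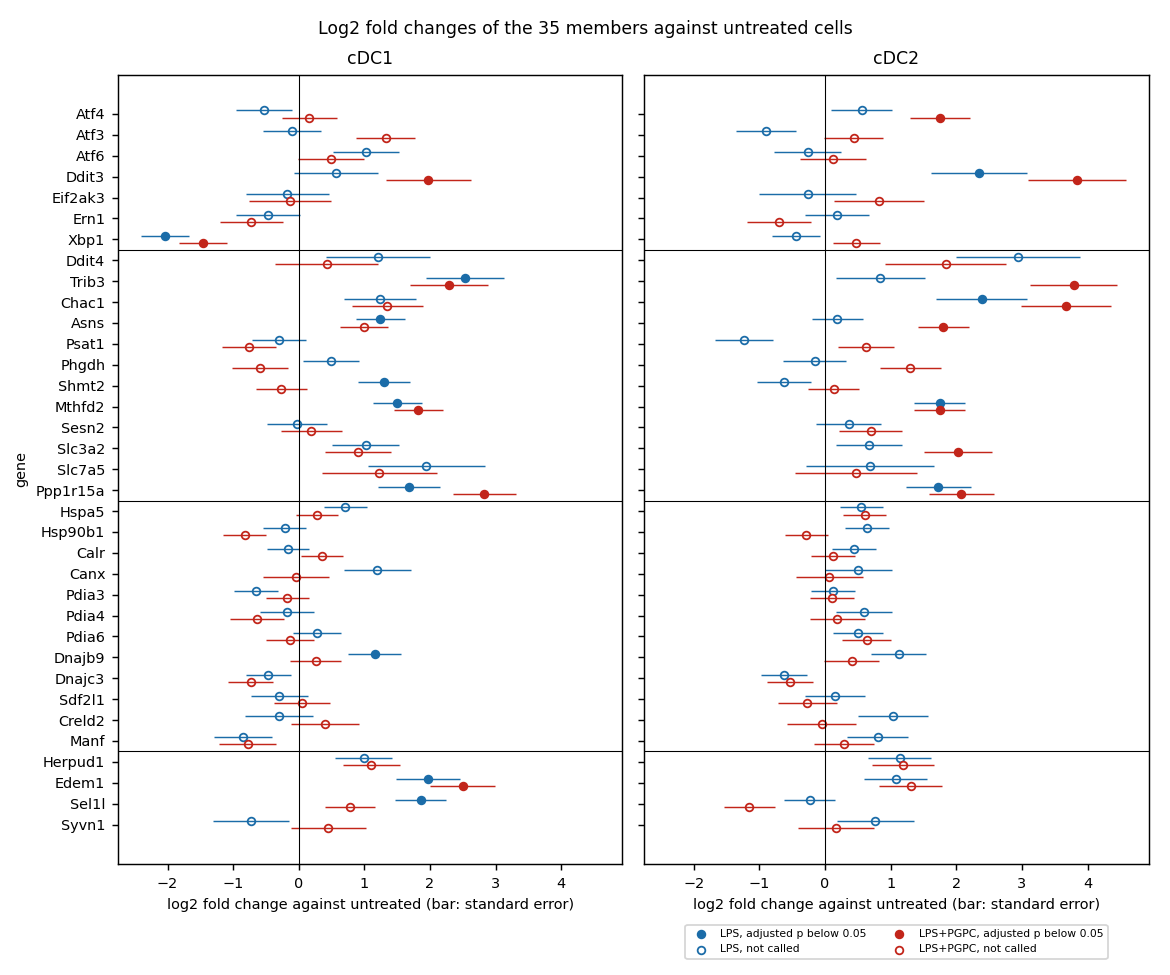
Log2 fold changes of the 35 genes (rows) against untreated cells in cDC1 and cDC2 (panels) for LPS (blue) and LPS with PGPC (red); bars are standard errors, and filled points have an adjusted p below 0.05. The filled points of cDC2 lie among the ATF4 targets and their regulators, and cDC1 adds Xbp1 below 0 and Edem1, Sel1l and Dnajb9 above 0.

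Among the 12 ATF4 targets, LPS raised 5 in cDC1 (41.7%, against 8.58% of all tested genes) and 3 in cDC2 (25%, against 5.82%). LPS with PGPC raised 3 in cDC1 (25%, against 6.58%) and 6 in cDC2 (50%, against 5.42%). Their median log2 fold change was 1.24 with LPS in cDC1 and 0.68 in cDC2, and with LPS and PGPC it was 0.95 in cDC1 and 1.77 in cDC2, where all 12 were above 0, from 0.13 to 3.79. Over all tested genes the matching medians were -0.12, 0.03, -0.08 and 0.07. The list was chosen with earlier results of these data known, so its shares and medians describe it and are not independent support.

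Trib3 (chr2:152337422-152344032, minus strand) encodes a pseudokinase that ATF4 and CHOP induce and that restrains AKT and ATF4 itself. In cDC1 it stood at 8.55, 4.56 and 6.21 CPM in untreated replicates 1, 2 and 3, at 51.9, 28.3 and 26.5 CPM with LPS, at 12.2, 4.23 and 14.9 CPM with PGPC and at 51.6, 14.0 and 25.3 CPM with both. The LPS libraries and those with both lay wholly above the untreated ones, while those with PGPC alone overlapped them. It rose by 2.53 ± 0.60 with LPS (5.77-fold, adjusted p = 0.00410) and by 2.29 ± 0.59 with both (adjusted p = 0.0110), and the step from LPS to both was -0.24 ± 0.54 (adjusted p = 0.882). The call with both was lost without untreated replicate 2 (adjusted p = 0.0632) or LPS with PGPC replicate 1 (adjusted p = 0.0736).

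In cDC2, Trib3 was at 4.82, 2.58 and 0 CPM in untreated replicates 4, 5 and 6, at 8.19, 7.0 and 1.96 CPM with LPS, at 8.22 and 6.89 CPM in the PGPC libraries and at 65.0, 43.7 and 29.6 CPM with both. Here the libraries with LPS alone overlapped the untreated ones, and those with both lay above every other cDC2 library. Against LPS alone it rose by 2.94 ± 0.62 with both (7.69-fold, adjusted p = 0.0264), and against no treatment by 3.79 ± 0.67 (13.8-fold, adjusted p = 0.000557). LPS alone gave 0.84 ± 0.67 (adjusted p = 0.563). The call against LPS was lost without LPS replicate 5 or 6, or without replicate 4 or 5 of LPS with PGPC (adjusted p from 0.0790 to 0.171).

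**Figure D3:**
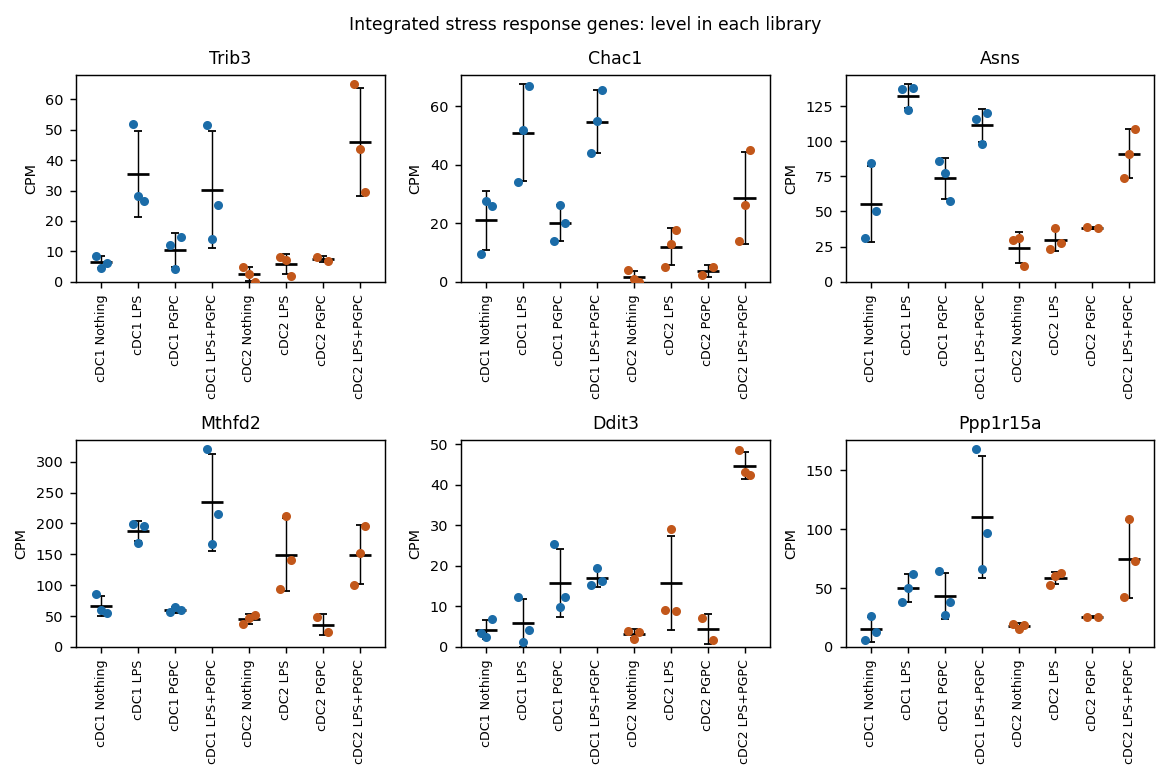
Level in CPM of Trib3, Chac1, Asns, Mthfd2, Ddit3 and Ppp1r15a in each library (points) of the 8 groups, with the mean and SD as bars. In cDC2 the libraries with LPS and PGPC stand above the untreated ones in all 6 panels, and for Trib3, Ddit3 and Asns above the LPS libraries too.

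Chac1 (chr2:119351229-119354381, plus strand) encodes an enzyme that degrades glutathione. In untreated cDC2 it was at 4.02, 0.775 and 0 CPM, which rest on 15, 3 and 0 counts, and it was at 5.12, 12.9 and 17.6 CPM with LPS, 2.19 and 5.17 CPM with PGPC and 14.0, 26.3 and 45.1 CPM with both. The lowest LPS library stood just above the highest untreated one, and the libraries with both overlapped those with LPS. Chac1 rose by 2.39 ± 0.69 with LPS in cDC2 (adjusted p = 0.0296) and by 3.68 ± 0.69 with both (adjusted p = 0.000948). The call with LPS was lost without untreated replicate 5 or 6 or LPS replicate 5 or 6 (adjusted p from 0.0654 to 0.227), and with cDC2 fitted alone (adjusted p = 0.0549). In cDC1 its level was 9.41, 27.7 and 25.7 CPM without treatment, 34, 52.0 and 66.8 CPM with LPS, 13.7, 26.1 and 20.1 CPM with PGPC, and 43.8, 54.9 and 65.4 CPM with both. These groups did not overlap for LPS or for both, which held for 39.1% and 29.8% of all tested genes. Neither difference was called (LPS 1.24 ± 0.54, adjusted p = 0.114, and both 1.35 ± 0.54, adjusted p = 0.109). With cDC1 fitted alone, edgeR called the LPS difference (1.35, adjusted p = 0.0473).

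Asns (chr6:7675169-7693254, minus strand) encodes asparagine synthetase. In cDC1 it was at 30.8, 84.5 and 50.4 CPM without treatment, 137, 122 and 137 CPM with LPS, 85.8, 77.5 and 57.1 CPM with PGPC, and 116, 97.9 and 120 CPM with both. The cDC2 levels were 29.7, 31.0 and 11.2 CPM without treatment, 23.6, 38.3 and 27.4 CPM with LPS, 38.9 and 37.9 CPM with PGPC, and 73.6, 91.0 and 109 CPM with both. With LPS alone the gene was thus high in all cDC1 libraries and within the untreated range or just above it in cDC2. It rose by 1.24 ± 0.37 with LPS in cDC1 (adjusted p = 0.0204), a call that was lost without untreated replicate 1 or 3 or any of the 3 LPS libraries (adjusted p from 0.0550 to 0.0942). In cDC2 the difference was 0.19 with LPS (adjusted p = 0.871), and Asns rose by 1.8 ± 0.39 with both (3.48-fold, adjusted p = 0.00345). Against LPS alone the difference with both was 1.61 ± 0.38 in cDC2 (adjusted p = 0.0556) and -0.25 in cDC1 (adjusted p = 0.791), and DESeq2 called the cDC2 step (adjusted p = 0.00270). In cDC1 with both against no treatment it was 0.99 ± 0.37 (adjusted p = 0.0789, and 0.0318 in DESeq2).

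Mthfd2 (chr6:83305691-83325908, minus strand) and Shmt2 (chr10:127517123-127522444, minus strand) encode enzymes of mitochondrial one-carbon metabolism. Mthfd2 was the member called in all 4 comparisons of LPS or LPS with PGPC against no treatment, together with Ppp1r15a. It was at 85.5, 59.9 and 54.5 CPM in untreated cDC1, 198, 168 and 195 CPM with LPS and 320, 167 and 215 CPM with both, and at 37.0, 46.2 and 52.4 CPM in untreated cDC2, 94.2, 212 and 141 CPM with LPS and 99.8, 152 and 195 CPM with both. The PGPC libraries, at 56.0, 64.2 and 59.4 CPM in cDC1 and 48.2 and 24.1 CPM in cDC2, lay far below the LPS libraries. Mthfd2 rose by 1.5 ± 0.37 with LPS and 1.82 ± 0.38 with both in cDC1 (adjusted p = 0.00650 and 0.00178), and by 1.75 ± 0.39 with either in cDC2 (adjusted p = 0.00383 and 0.00456). Without untreated replicate 4 the cDC2 calls were lost (adjusted p = 0.0561 with LPS and 0.0610 with both).

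Shmt2 moved with LPS in cDC1 and stood near the untreated level when PGPC was added. It was at 59.0, 51.8 and 62.4 CPM without treatment, 181, 139 and 105 CPM with LPS, 70.1, 57.6 and 65.2 CPM with PGPC, and 57.1, 43.3 and 43.7 CPM with both. It rose by 1.30 ± 0.39 with LPS (adjusted p = 0.0229), and from LPS to LPS with PGPC the difference was -1.56 ± 0.39 (2.95-fold lower, adjusted p = 0.0353). The second call was lost without any single library of either group (adjusted p from 0.0501 to 0.167), and the first without any untreated library or LPS replicate 1 or 2 (adjusted p from 0.0512 to 0.108). In cDC2 its level ran from 18.7 to 107 CPM over all groups, and no treatment comparison was called.

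Ppp1r15a (chr7:45522916-45526268, minus strand) encodes GADD34, the subunit that directs a phosphatase to eIF2alpha and so ends the block of translation. In cDC1 it was at 5.99, 26.2 and 12.3 CPM without treatment, 37.9, 49.6 and 61.5 CPM with LPS, 64.4, 26.7 and 38.1 CPM with PGPC, and 168, 66.3 and 96.7 CPM with both. In cDC2 its level was 19.6, 15.2 and 18.7 CPM without treatment, 52.7, 60.3 and 62.6 CPM with LPS, 25.8 and 25.8 CPM with PGPC, and 42.4, 108 and 72.7 CPM with both. Every treated library of either type stood above the untreated libraries of its type. Ppp1r15a rose by 1.68 ± 0.47 with LPS and 2.83 ± 0.48 with both in cDC1 (adjusted p = 0.0143 and 0.000275), and by 1.73 ± 0.50 and 2.07 ± 0.50 in cDC2 (adjusted p = 0.0276 and 0.00844). With PGPC alone in cDC1 the difference was 1.48 ± 0.46 (adjusted p = 0.0921). The LPS calls were lost in cDC1 without untreated replicate 1 or 3 or LPS replicate 3 (adjusted p from 0.0620 to 0.0754), and in cDC2 without any untreated library or LPS replicate 5 or 6 (adjusted p from 0.0622 to 0.139). The cDC2 call with both was lost without untreated replicate 5 (adjusted p = 0.0634) or LPS with PGPC replicate 5 (adjusted p = 0.0569).

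Slc3a2 (chr19:8706882-8723369, minus strand) encodes the heavy chain that pairs with amino acid transporters. In cDC2 it was at 323, 264 and 296 CPM without treatment, 743, 407 and 256 CPM with LPS, 323 and 367 CPM with PGPC, and 2204, 975 and 425 CPM with both. LPS with PGPC replicate 4 stood far above the other libraries of its group. With both against no treatment, Slc3a2 rose by 2.03 ± 0.52 (adjusted p = 0.0141), against 1.25 without that library, and the call was lost without it or without any untreated library (adjusted p from 0.0580 to 0.162). Slc7a5, the partner of Slc3a2 in leucine uptake, stayed at 0 to 16.8 CPM over all libraries and was called nowhere. In cDC1 with LPS its difference was 1.94 ± 0.89 (adjusted p = 0.133).

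Psat1 and Phgdh encode enzymes of serine synthesis, and edgeR called neither in a treatment comparison. Psat1 in cDC2 was at 46.1, 35.6 and 44.9 CPM without treatment, 9.73, 22.6 and 21.5 CPM with LPS and 48.6, 73.9 and 71.1 CPM with both. The LPS libraries lay below both these groups, with differences of -1.23 from untreated (adjusted p = 0.0946) and 1.86 ± 0.44 from LPS to both (adjusted p = 0.0556), a step that DESeq2 called (adjusted p = 0.00730). Of all tested genes, 27% and 13.9% had no overlap in these comparisons. With PGPC alone Psat1 in cDC2 was at 24.1 to 26.3 CPM, also below the untreated libraries, where 29.2% of all tested genes had no overlap. Phgdh in cDC2 was at 11.7 to 21.5 CPM with LPS and 30.5 to 56.5 CPM with both, a difference of 1.46 ± 0.45 (adjusted p = 0.224). In cDC1 it was at 74.8 to 117 CPM with LPS and 23.5 to 78.7 CPM with both, which overlap (-1.08, adjusted p = 0.194). Sesn2, an inhibitor of mTORC1 signalling, differed from untreated by at most 1.14 on the log2 scale, with PGPC in cDC2 (adjusted p = 0.851). Ddit4, which encodes a further mTORC1 inhibitor, was at 0.804 to 7.48 CPM in untreated cDC2 and 12.3 to 16.7 CPM with LPS (2.94 ± 0.95, adjusted p = 0.0535), where DESeq2 made a call (adjusted p = 0.0129).

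Of the 7 sensors and transcription factors, 3 (Atf4, Ddit3 and Xbp1) were called in at least 1 treatment comparison, beside 27.1% of all tested genes. Atf4 (chr15:80255184-80257541, plus strand) encodes the activator of the integrated stress response, whose output is set mainly at translation. In cDC1 its RNA was at 32.5, 102 and 46.8 CPM without treatment, 31.9, 47.2 and 47.4 CPM with LPS, 105, 80.1 and 60.1 CPM with PGPC, and 55.1, 60.2 and 89.3 CPM with both. All these groups overlapped the untreated libraries, and none of the differences was called (LPS -0.54 ± 0.43, adjusted p = 0.413). In cDC2 it was at 20.4, 17.6 and 3.74 CPM without treatment, 20.5, 30.7 and 19.6 CPM with LPS, 29.6 and 24.1 CPM with PGPC, and 38.2, 64.5 and 60.2 CPM with both. The libraries with both stood above all other cDC2 libraries, and Atf4 rose by 1.75 ± 0.46 against no treatment (adjusted p = 0.0159). Against LPS the difference was 1.19 ± 0.44 (adjusted p = 0.384). The call was lost without untreated replicate 5 or 6 or LPS with PGPC replicate 5 (adjusted p from 0.0596 to 0.0655).

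Ddit3 (chr10:127290774-127296288, plus strand) encodes CHOP, the factor tied to cell death under lasting ER stress. It was at 3.42, 2.40 and 6.81 CPM in untreated cDC1, 12.4, 1.18 and 4.12 CPM with LPS, 25.3, 9.77 and 12.2 CPM with PGPC, and 15.2, 19.6 and 16.2 CPM with both. The cDC2 libraries stood at 4.02, 2.07 and 3.74 CPM without treatment, 9.22, 29.1 and 8.80 CPM with LPS, 7.12 and 1.72 CPM with PGPC, and 48.6, 43.1 and 42.4 CPM with both. In both types the libraries with LPS and PGPC stood close together and above all untreated and LPS libraries. Against no treatment Ddit3 rose by 3.84 ± 0.75 in cDC2 (14.3-fold, adjusted p = 0.00145) and by 1.97 ± 0.65 in cDC1 (3.93-fold, adjusted p = 0.0461), whereas the steps from LPS to both were not called (1.49 ± 0.62, adjusted p = 0.488 in cDC2; 1.41 ± 0.62, adjusted p = 0.245 in cDC1).

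LPS alone raised Ddit3 in cDC2 by 2.35 ± 0.74 (adjusted p = 0.0459). Without LPS replicate 5, the highest of its group, the difference was 1.53, and the call was lost without that library or any untreated library (adjusted p from 0.0827 to 0.305). The cDC1 call was lost without untreated replicate 1 or 2 or any library with both (adjusted p from 0.0631 to 0.187), and with cDC1 fitted alone (adjusted p = 0.0943). Reads carry no strand, and Mars, which encodes methionyl-tRNA synthetase, overlaps Ddit3 on the opposite strand. Mars was called in none of the 9 comparisons of groups, and in cDC2 with LPS and PGPC it differed from untreated by 0.66 ± 0.38 (adjusted p = 0.355).

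Xbp1 (chr11:5520659-5525893, plus strand) was the only member that edgeR called lower against no treatment. In cDC1 it stood at 403, 450 and 316 CPM without treatment, 80.1, 103 and 103 CPM with LPS, 255, 299 and 243 CPM with PGPC, and 217, 114 and 93.9 CPM with both. Every treated library lay below the lowest untreated one, and the PGPC libraries lay above the others. It fell by 2.04 ± 0.37 on the log2 scale with LPS (4.10-fold lower, adjusted p = 0.000372) and by 1.46 ± 0.36 with both (adjusted p = 0.00814), and PGPC alone gave -0.55 ± 0.36 (adjusted p = 0.477). The call with both was lost without LPS with PGPC replicate 3 (adjusted p = 0.0585). Its level in cDC2 was 88.4, 83.7 and 116 CPM without treatment, 58.4, 74.9 and 75.3 CPM with LPS, 106 and 93.0 CPM with PGPC, and 71.4, 165 and 159 CPM with both, with no call.

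Plasmacytoid dendritic cells and B lineage cells also express Xbp1 strongly. The summed level of 10 plasmacytoid markers in cDC1 was 621 to 778 CPM without treatment, 250 to 423 CPM with LPS, 508 to 602 CPM with PGPC and 289 to 421 CPM with both, and Klk1 was at 0 in every group. The 10 B and plasma cell markers summed to 167 to 314 CPM without treatment and 166 to 449 CPM with LPS in cDC1. Whether these cells had a part in the fall of Xbp1 was not tested. In cDC2 the plasmacytoid sum was 56.1 to 120 CPM without treatment and 284 to 644 CPM with LPS, where Siglech, Ly6d and Klk1 were at 0.

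The genes of the sensors themselves, Eif2ak3, Ern1 and Atf6, were called in no comparison. Eif2ak3 in cDC1 was at 13.8 to 23.3 CPM without treatment and 0.651 to 9.37 CPM with PGPC, without overlap (-1.70 ± 0.65, adjusted p = 0.176). Of all tested genes, 18.1% had no overlap there. Ern1 ran from 11.8 to 95.9 CPM and Atf6 from 8.22 to 124 CPM over all libraries. Atf3, a repressor induced by ATF4 and by TLR signals, was at 536 CPM in LPS with PGPC replicate 1 of cDC1 and at 121 and 159 CPM in the other libraries of that group, against 80.9 to 118 CPM with LPS. Its differences there were 1.43 ± 0.45 against LPS (adjusted p = 0.0992) and 1.33 against no treatment (adjusted p = 0.0541), and DESeq2 called both (adjusted p = 0.0282 and 0.0271).

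Of the 12 ER chaperones and folding enzymes, LPS raised 1 in cDC1 (Dnajb9, 8.33%, near the 8.58% of all tested genes called higher), and in the other 7 treatment comparisons edgeR called 0 of 12, with 0 to 2 at an unadjusted p under 0.05. Over all 12463 genes, 723 to 3221 had such a p there. In those comparisons between 0.016% and 11.9% of all tested genes were called, so a count of 0 of 12 is near the share over all genes. Hsp90b1, which encodes the chaperone GRP94, was at 275, 358 and 374 CPM in untreated cDC1 and 205, 190 and 173 CPM with both, and in cDC2 at 238, 450 and 348 CPM with LPS and 163, 179 and 204 CPM with both. In each pair the libraries with both lay below the others, and DESeq2 made a call where edgeR did not (edgeR -0.83, adjusted p = 0.106, and -0.93, adjusted p = 0.349). Of all tested genes, 29.8% and 13.9% had no overlap in these comparisons. The median log2 fold change of the 12 chaperones was -0.20 with LPS in cDC1, 0.53 in cDC2, and -0.09 and 0.11 with LPS and PGPC in cDC1 and cDC2. In cDC2 with LPS, 11 of the 12 lay above 0 without a call, and 1 had an unadjusted p under 0.05. Of all 12463 tested genes, 6396 lay above 0 and 2409 had such a p.

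Hspa5 (chr2:34771970-34777547, plus strand) encodes BiP, the main ER chaperone and the standard readout of the unfolded protein response. In cDC1 it was at 259, 491 and 381 CPM without treatment, 729, 582 and 542 CPM with LPS, 474, 305 and 393 CPM with PGPC, and 566, 438 and 369 CPM with both. In cDC2 it was at 301, 278 and 284 CPM without treatment, 561, 379 and 326 CPM with LPS, 271 and 224 CPM with PGPC, and 484, 491 and 338 CPM with both. LPS libraries of both types lay above the untreated ones, in comparisons where 39.1% (cDC1) and 27% (cDC2) of all tested genes had no overlap. The difference was 0.71 ± 0.33 in cDC1 (adjusted p = 0.136) and 0.55 in cDC2 (adjusted p = 0.393). With LPS and PGPC it was 0.28 (adjusted p = 0.654) and 0.61 (adjusted p = 0.321).

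Dnajb9 (ERdj4), a co-chaperone of BiP and a known target of XBP1, was at 29.1, 43.3 and 27.5 CPM in untreated cDC1 and 74.3, 84.4 and 65.1 CPM with LPS, so that these groups did not overlap. With PGPC it was at 14.4, 18.6 and 11.6 CPM, below all untreated libraries. It rose by 1.15 ± 0.40 with LPS (adjusted p = 0.0458), a call that was lost without untreated replicate 1 or 3 or any LPS library (adjusted p from 0.0907 to 0.163). The PGPC difference was -1.18 ± 0.40 (adjusted p = 0.124).

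Sdf2l1, part of the BiP chaperone complex and a gene strongly induced by ER stress in many cells, gave no call. The cDC1 levels were 83.8, 89.1 and 47.2 CPM without treatment, 50.7, 55.5 and 72.1 CPM with LPS, 67.0, 71.6 and 58.0 CPM with PGPC, and 104, 75.5 and 47.9 CPM with both. The cDC2 values were 40.7, 30.5 and 15 CPM without treatment, 23.6, 47.4 and 31.3 CPM with LPS, 47.1 and 25.8 CPM with PGPC, and 11.2, 37.0 and 28.9 CPM with both. All treated groups overlapped the untreated libraries of their type, and log2 differences from untreated lay between -0.30 and 0.28, with none called.

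The lectin chaperone genes Calr and Canx, Hsp90b1, the disulfide isomerase genes Pdia3, Pdia4 and Pdia6, the co-chaperone gene Dnajc3, and Creld2 and Manf, which encode secreted ER stress proteins, were not called by edgeR in any treatment comparison. Canx reached 1046 CPM in LPS replicate 1 of cDC1 against 575 and 344 CPM in the other LPS libraries and 165 to 368 CPM without treatment (1.20, adjusted p = 0.107). With cDC1 fitted alone, edgeR called Canx there (1.32, adjusted p = 0.0418). Manf in cDC1 was at 62.3 to 65.5 CPM without treatment, and every treated library lay below that, at 24.1 to 52.5 CPM. In these comparisons 18.1% to 39.1% of all tested genes had no overlap. Creld2 and Syvn1 spread widely within cDC2 with LPS, at 24.6, 136 and 93.9 CPM and at 23, 219 and 191 CPM in replicates 4, 5 and 6.

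**Figure D4:**
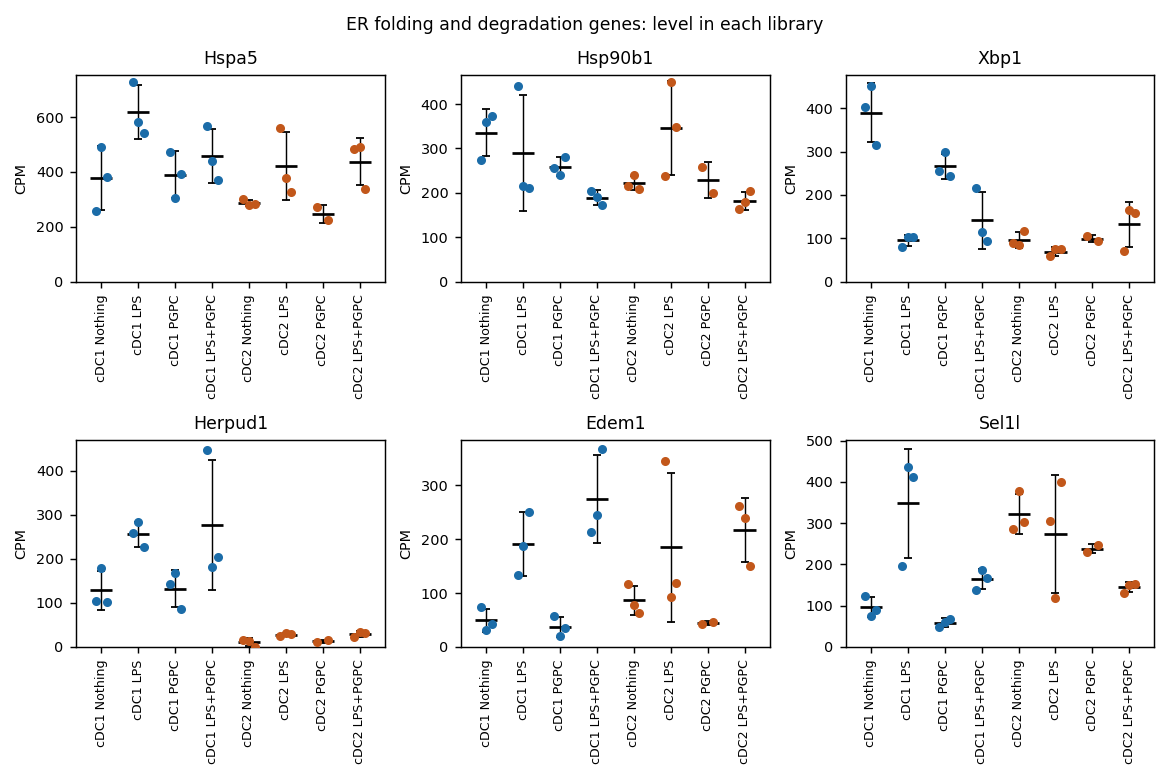
Level in CPM of Hspa5, Hsp90b1, Xbp1, Herpud1, Edem1 and Sel1l in each library (points) of the 8 groups, with the mean and SD as bars. Xbp1 and Herpud1 are higher in untreated cDC1 than in untreated cDC2, and Edem1 is higher in cDC1 with LPS or with both than without treatment.

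Among the 4 genes of ER-associated degradation, 2 (Edem1 and Sel1l) were called in at least 1 treatment comparison, beside 27.1% of all tested genes. Edem1 (chr6:108828641-108859356, plus strand) encodes a lectin that hands misfolded glycoproteins to degradation. It was at 73.6, 31.5 and 43.1 CPM in untreated cDC1, 133, 188 and 251 CPM with LPS, 57.5, 20.2 and 34.4 CPM with PGPC, and 213, 244 and 367 CPM with both. The PGPC libraries stayed within or below the untreated range, and the other treated libraries lay above it. Edem1 rose by 1.97 ± 0.48 with LPS (3.91-fold, adjusted p = 0.00586) and by 2.5 ± 0.49 with both (5.64-fold, adjusted p = 0.00112). In cDC2 it was at 117, 78.8 and 63.6 CPM without treatment, 345, 92.1 and 118 CPM with LPS and 262, 239 and 150 CPM with both, and was not called (1.08, adjusted p = 0.200; 1.30, adjusted p = 0.103).

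Sel1l (chr12:91806043-91849157, minus strand) encodes the adaptor of the ubiquitin ligase HRD1, whose own gene is Syvn1. In cDC1 it was at 123, 75.0 and 90.7 CPM without treatment, 195, 436 and 412 CPM with LPS, 48.2, 61.6 and 67.8 CPM with PGPC, and 138, 187 and 167 CPM with both. It rose by 1.86 ± 0.39 with LPS (adjusted p = 0.00165), and the libraries with both lay between the other groups. In cDC2 it was at 286, 378 and 303 CPM without treatment, 306, 118 and 399 CPM with LPS, 230 and 246 CPM with PGPC, and 132, 151 and 152 CPM with both. Here the libraries with both lay below all untreated ones (-1.15 ± 0.39, adjusted p = 0.0692), where DESeq2 made a call. Herpud1 in cDC1 was at 104, 180 and 103 CPM without treatment, 259, 283 and 227 CPM with LPS and 448, 182 and 204 CPM with both (LPS 0.99 ± 0.44, adjusted p = 0.118; both 1.11, adjusted p = 0.103).

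The ATF4 targets and the chaperones were set against each other in each library. Each list was summarised as the mean of log2(CPM + 1) over its 12 genes, less the mean of that value in the untreated libraries of the same type, and the chaperone value was subtracted from the ATF4 value. In cDC2 with LPS and PGPC the difference was 1.74, 1.45 and 1.38 in replicates 4, 5 and 6. On this relative scale it lay above every other library in the set. With LPS alone it was 0.05, 0.45 and 0.52 in cDC2 and 1.23, 1.01 and 1.11 in cDC1. In cDC1 it was 1.16, 0.75 and 1.16 with both and 0.86, 0.38 and 0.93 with PGPC alone. In cDC2 with PGPC it was 0.11 and 0.49, and untreated libraries of either type lay between -0.12 and 0.14. Each score is relative to the untreated libraries of its own type, so its order across types does not compare levels. Without treatment the median log2 difference of cDC2 from cDC1 was -0.73 over the ATF4 targets and -0.84 over the chaperones.

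The gap came from the ATF4 side in the groups where it was widest. The ATF4 list stood 1.61 ± 0.12 (SD, n = 3) above untreated in cDC2 with both and the chaperone list 0.09 ± 0.13 (SD, n = 3). In cDC1 with LPS these values were 1.12 ± 0.21 and 0.00 ± 0.11 (SD, n = 3). In cDC1 with PGPC the ATF4 list stood at 0.41 ± 0.37 and the chaperones at -0.32 ± 0.11 (SD, n = 3), so both sides contributed. In cDC2 with LPS both lists stood above untreated, at 0.77 ± 0.22 and 0.43 ± 0.12 (SD, n = 3). With the list median in place of the mean the difference kept its sign in cDC1 and in cDC2 with both, but was -0.63 in cDC2 with LPS and -0.11 in cDC2 with PGPC, so no direction is given for these groups. No p is given for these scores, since the lists were chosen with results known.

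**Figure D5:**
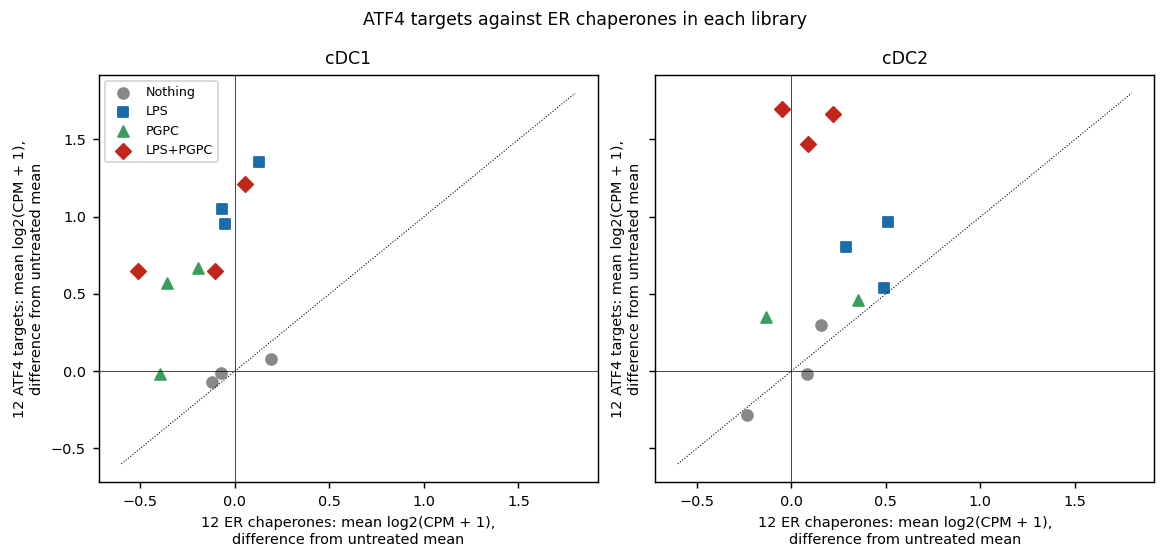
Mean log2(CPM + 1) of the 12 ATF4 targets (vertical axis) against that of the 12 chaperones (horizontal axis) in each library, both as the difference from untreated libraries of the same type, with a dotted line of equality. The cDC2 libraries with LPS and PGPC lie highest above the line, by 1.38 to 1.74, and the cDC2 libraries with LPS by 0.05 to 0.52.

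Without treatment the cell types differed in 7 of the 35 genes (20%, against 10.2% of all tested genes), 6 lower and 1 higher in cDC2, where 6.14% of all genes were lower and 4.01% higher. Herpud1 was at 16.3, 14.5 and 0 CPM in cDC2 and 104, 180 and 103 CPM in cDC1, and Xbp1 was at 83.7 to 116 CPM against 316 to 450 CPM. Neither gene's groups overlapped, which held for 34.7% of all tested genes. In cDC2 Herpud1 was lower (log2 difference -3.33 ± 0.50, adjusted p = 0.000173) and so was Xbp1 (4.12-fold, -2.04 ± 0.37, adjusted p = 0.000960). Chac1 (-3.28 ± 0.68, adjusted p = 0.00270), Manf (-2.05 ± 0.47, adjusted p = 0.00600), Phgdh (-1.94 ± 0.47, adjusted p = 0.00924) and Atf4 (-1.92 ± 0.46, adjusted p = 0.00813) were lower too. The Atf4 call was lost without cDC1 untreated replicate 2 (adjusted p = 0.0956) and the Phgdh call without cDC2 untreated replicate 4 or 5 (adjusted p = 0.0613 and 0.0901). Sel1l was higher in cDC2, at 286 to 378 CPM against 75.0 to 123 CPM (1.75 ± 0.39, adjusted p = 0.00504).

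All 12 chaperones had values below 0 in that comparison, from -2.05 to -0.19 with a median of -0.84, and edgeR called Manf alone among them. DESeq2 called 10 of the 35 genes in place of 7, adding Asns, Sesn2 and the chaperone gene Pdia3, and it called 1770 of all 12463 tested genes. The median of all tested genes was -0.10. The summed plasmacytoid markers were 621 to 778 CPM in untreated cDC1 and 56.1 to 120 CPM in untreated cDC2, and the B and plasma cell markers 167 to 314 CPM and 110 to 127 CPM. Their part in the lower Xbp1 and Herpud1 levels was not tested.

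Whether cDC1 and cDC2 responded differently was tested by interaction terms, and edgeR called 0 of the 35 genes in each of the 3. For the response to LPS, edgeR called 1.33% of all genes. An unadjusted p under 0.05 was found for 4 members, near the share over all genes (1734 of 12463). DESeq2 called 3 members, Shmt2, Xbp1 and Sel1l, and 428 of all 12463 genes. Sel1l had the smallest adjusted p of the members there (-2.09 ± 0.55, adjusted p = 0.0553), and Xbp1 differed by 1.59 ± 0.51 (adjusted p = 0.140). For PGPC alone (0.168% called), 3 members had an unadjusted p under 0.05, near the share over all genes (1219 of 12463), and DESeq2 called 0.

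For PGPC added to LPS (0.00802% called, 1 gene of 12463), 996 of all 12463 genes had an unadjusted p under 0.05. So had 8 members, and 6 of these were ATF4 targets. All 6 were higher in cDC2 relative to cDC1. Trib3 differed by 3.18 ± 0.81 (adjusted p = 0.253), Phgdh by 2.53 ± 0.62 (adjusted p = 0.229) and Shmt2 by 2.32 ± 0.56 (adjusted p = 0.216). Psat1 differed by 2.31 ± 0.60 (adjusted p = 0.264) and Asns by 1.86 ± 0.52 (adjusted p = 0.309). DESeq2 called these 5, and its count over all genes is not given here. The median over the 12 ATF4 targets was 1.33 and over the 12 chaperones -0.13, beside -0.05 over all tested genes.

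The pathway genes outside the 35 were taken from lists of 42 further genes for each response, also chosen with earlier results of these data known. Of 39 tested genes of the integrated stress response, LPS raised 11 in cDC1 (28.2%, against 8.58% of all tested genes) and 3 in cDC2 (7.69%, against 5.82%). LPS with PGPC raised 4 in cDC1 (10.3%, against 6.58%) and 3 in cDC2 (7.69%, against 5.42%), and no gene of the list was called lower in these comparisons. Apart from LPS in cDC1 these shares lie near those over all genes. Slc7a11, the cystine transporter, rose by 3.94 ± 0.53 with LPS in cDC1 (adjusted p = 1.45e-05), and in cDC2 by 2.48 with LPS and 1.65 with both. Eif2ak2, the interferon-induced kinase PKR of eIF2alpha, rose in all 4 of these comparisons, by 1.55 to 2.46. The tRNA synthetase genes Aars (2.56 ± 0.58) and Iars (2.25 ± 0.55) rose with LPS in cDC1. Nupr1, a stress-induced chromatin protein, was at 0.344 ± 0.596 CPM in untreated cDC2, 9.37 ± 6.69 CPM with LPS and 29.4 ± 12 CPM with both (SD, n = 3; adjusted p = 0.0319 and 0.00313 against untreated).

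Of 42 tested genes of the ER and its unfolded protein response, LPS raised 4 and lowered 3 in cDC1 (9.52% and 7.14%, near the 8.58% and 9.36% of all tested genes) and changed none in cDC2 by edgeR (8.52% of all genes), where 5 had an unadjusted p under 0.05. So had 2409 of all 12463 tested genes. In cDC1 the protein disulfide isomerase genes Txndc5 and Pdia5 fell by 1.76 and 2.04 on the log2 scale with LPS, while Ero1l, which encodes the oxidase that recharges these isomerases, rose by 1.67 and Tmbim6 by 1.91. LPS with PGPC lowered 2 in cDC1, Creb3l2 and Pdia5 (4.76% of the list, near the 5.3% of all tested genes). In cDC2 it raised Creb3 by 1.63 (2.38% of the list, against 5.42%) and lowered Sec24d and Rpn1 (4.76%, against 2.2%). PGPC alone raised Creb3 in cDC1 (1.40, adjusted p = 0.0480), the only edgeR call for PGPC alone among the pathway genes examined, members included. That is 2.38% of this list, against 0.578% of all tested genes. Untreated cDC2 had lower Pdia5, Ssr2 and Sec61b (7.14% of the list, near the 6.14% of all tested genes) and higher Sec24d (2.38%, against 4.01%) than untreated cDC1.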

How the data were processed

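RNA of 36 mouse dendritic cell samples was sequenced, per the labels' protocols, as paired-end Nextera XT libraries from Smart-Seq2 cDNA, with RNA worth about 2000 cells per reaction. The authors deposited a table of expected counts per gene symbol, made with RSEM on GRCm38 after bcl2fastq 2.2, per the submitters' processing notes. The RSEM version, aligner and annotation were not stated there or in the labels (not given in the sources used here). Of the nonzero values 21.0% were not whole numbers, so expected counts were rounded. The cell type and treatment labels gave the groups. In R 4.3.3, genes were filtered with filterByExpr (minimum count 10, minimum total 15), scaled by TMM and fitted with edgeR's quasi-likelihood method (version 4.0.16, with limma 3.58.1) on 23 libraries in 8 groups, giving 12 contrasts, and p-values were adjusted by Benjamini-Hochberg over 12463 genes with a threshold of 0.05. A standard error is the absolute log2 fold change over the square root of its F statistic. DESeq2 1.42.0 was an alternative, with other scaling, filters, library sets, the replicate number as a block, and each library left out in turn. The code was tested on simulated data. The members and lists were chosen with earlier results of these data known. Values in every library are given for up to 8 called members per treatment comparison and always for Atf4, Ddit3, Trib3, Chac1, Asns, Xbp1, Hspa5 and Sdf2l1, and of other pathway genes up to 4 called genes per comparison are named. Further members whose library values are given were chosen after their values were seen. Ddit3 has 2 identifiers in GENCODE M21, from which gene positions were taken, while the table holds 1 row for it. Levels are not scaled by gene length, so they were not compared between genes. Smart-Seq2 reads carry no strand, and reads of overlapping genes cannot be told apart. Manf overlaps Dcaf1 and Rbm15b. Reads carry no molecular identifiers, so floors cover counting error only.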

Additional observations from a re-analysis of the deposited data

How the results depend on the processing

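Depth, unequal between libraries, limits the low genes most. In 211 of 256 alternatives the count of called members was within 1.5-fold of the main count, or stayed at 0 where that was 0. This measure allows a count to move and does not show that the same genes were called. Of 36 called gene results, 2 kept their call under every alternative: Trib3 with LPS in cDC1 (adjusted p from 0.000369 to 0.0310) and Trib3 with LPS and PGPC against no treatment in cDC2 (1.41e-06 to 0.00987). Over all 36 results, 418 of 526 alternatives kept the call, 108 lost it and 0 reversed it. With all 36 libraries in the fit, alum included, the count fell from 9 to 1 for LPS in cDC1, from 4 to 0 for LPS in cDC2, from 6 to 0 and from 8 to 1 for LPS with PGPC against no treatment in cDC1 and cDC2, to 0 for LPS with PGPC against LPS in either type, and from 7 to 0 between untreated types. The cause was not tested. With the shallow PGPC library kept (24 libraries), the count for LPS with PGPC against LPS in cDC1 was 0. With each cell type fitted alone, LPS in cDC1 gained Chac1 (adjusted p = 0.0473) and Canx (0.0418). LPS with PGPC against no treatment in cDC1 lost Ddit3 (0.0943). For LPS in cDC2 that fit lost Chac1 (0.0549) and gained Ddit4 (0.0238). DESeq2 called 1 member for PGPC in cDC1, 2 for LPS with PGPC against LPS in cDC1 and 4 in cDC2, 3 for the interaction of LPS and 5 for that of PGPC added to LPS. Over all 12463 genes it called 637, 716 and 190 in the treatment comparisons and 428 for the interaction of LPS. For the 2 comparisons in cDC1 the share of members did not exceed that over all genes. Without a filter on low counts the count was 2 for LPS with PGPC against LPS in cDC2, and 1 for each of these interactions, while Asns (adjusted p = 0.0677), Shmt2 (0.0524) and Dnajb9 (0.133) lost their LPS calls in cDC1, which left 6. Shmt2 also lost its call for LPS with PGPC against LPS in cDC1 (0.0614), where Atf3 gained 1. With the replicate number as a block, LPS in cDC2 had 2 called members in place of 4: Ddit3 (adjusted p = 0.0526), Chac1 (0.0612) and Ppp1r15a (0.0502) were no longer called and Ddit4 was (0.0424). No other count or call of a member changed under the block; the numbers are not said to pair samples, and 9 of 33 correlations between same-numbered libraries were over 0.1 (from -0.244 to 0.590). Leaving out each library in turn gave 5 to 8 for LPS, 0 to 1 for PGPC, 0 to 1 for LPS with PGPC against LPS and 5 to 6 against no treatment in cDC1. In cDC2 it gave 1 to 4 for LPS, 0 to 1 for LPS with PGPC against LPS and 5 to 8 against no treatment, and 6 to 8 between untreated types and 0 to 1 for the interaction of LPS. Leaving out a wider set of ribosomal RNA rows, an alternative chosen after seeing the data, gave 8 for LPS in cDC1 (Dnajb9 lost) and 7 for LPS with PGPC against no treatment in cDC1. The score of ATF4 targets less chaperones was 0.964 for LPS in cDC1 and 1.23 for LPS with PGPC in cDC2 with a pseudocount of 4 CPM. With list medians it was 0.843 and 0.592 for LPS and LPS with PGPC in cDC1, and -0.632, -0.111 and 1.08 for LPS, PGPC and both in cDC2. Without each library in turn it ran from 1.06 to 1.17 for LPS, 0.619 to 0.897 for PGPC and 0.955 to 1.16 for both in cDC1, and from 0.250 to 0.487, 0.109 to 0.489 and 1.41 to 1.59 in cDC2.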
